A study of Mus musculus with 8 samples.

Results

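The enzymes described here write, rewrite or remove chemical marks on transfer RNA (tRNA), ribosomal RNA and messenger RNA. They were taken from the deposited gene table by symbol: Trmt, Pus, Nsun, Mettl, Adat, Alkbh, Ftsj or Tyw followed by a digit, and the numbered Elp subunits of the Elongator complex. The rule found 73 of 17634 genes. No measured value entered it, but it was chosen with earlier results of these data known. Some of the Mettl names belong to enzymes that act on proteins or small molecules, and those were kept as classes of their own. The AlkB enzymes were kept together whatever their substrate, among them Alkbh2, which repairs DNA.

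RNA had been extracted from small intestinal crypts, the pockets of the gut lining that hold its stem cells and dividing progenitors. All mice were C57BL/6N and all had been irradiated 3 days earlier. One group carried the miR-29ab1-/- genotype (the knockout, 4 libraries) and the other was WT (the wild type, 4 libraries). The deleted locus encodes miR-29a and miR-29b-1, and the labels name no driver that would limit the deletion to a tissue. No unirradiated group was analysed here, and the labels state neither the dose nor the age or sex of the animals. Nothing beyond a replicate number says whether the libraries of a group are separate mice, and p-values therefore reflect how far these libraries scatter. The table listed 0 Mir29 symbols, so the deletion itself was not checked.

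Deposited estimated counts totalled between 9481201 and 14612798 per knockout library and between 10719668 and 16231099 per wild-type library. The table held crypt markers at high levels in both groups: Lyz1, a Paneth cell lysozyme, ran at 7947, 14580, 4613 and 7121 CPM in the knockout libraries, against 4554, 5639, 4237 and 5005 CPM in the wild-type libraries. Knockout replicate 4 and wild-type replicate 4 had 1 and 3 counts from Y-linked genes, against 1285 to 2061 in the other libraries, so each group held 1 library that differed from the rest in this respect. Knockout replicates 3 and 4 and wild-type replicate 3 stood apart in fibroblast markers, of which 4 of 7 listed had enough counts to test. The summed level of these 4 was 13.1, 11.1, 186.7 and 192.1 CPM in the knockout and 11.8, 19.5, 164.2 and 47.6 CPM in the wild type. CPM are counts scaled to library size with TMM factors, and every set of values per library below runs from replicate 1 to replicate 4.

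A tRNA is among the most heavily modified molecules of the cell. Marks in its body stabilise its fold, marks at the wobble base and beside the anticodon set how well it reads codons, and several are made in steps by enzymes that work in pairs. Methylation of adenosine in messenger RNA is written by the Mettl3 and Mettl14 pair and can be removed by Alkbh5. In the mouse intestine, Elp3, the catalytic subunit of Elongator, has been studied in Wnt-driven tumour initiation and in regeneration.

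Most of the enzymes were lower in the knockout. Of the 70 members with enough counts to test, 41 were lower and 3 were higher at an edgeR adjusted p below 0.05, and 26 were not called. Over all 12908 tested genes, 23.1% were called lower, 24.2% higher and 47.3% either way. With total-count scaling in place of TMM, 50 members were lower and 1 higher, beside 4011 lower and 2089 higher among all tested genes. The log2 fold change, knockout over wild type, was negative for 58 of the 70 and had a median of -0.55, against 0.03 over all tested genes. The drops were mostly modest, from 1.22-fold to 2.68-fold, and 4 members fell at least 2-fold, namely Trmt10a, Mettl16, Nsun5 and Ftsj3. That size of drop was called in 4.2% of all tested genes. In 43 members all 4 knockout libraries lay below all 4 wild-type libraries, an arrangement seen in 22.7% of tested genes, and in 3 members they lay above, also 22.7% of tested genes. The 3 members not tested were Nsun7, Mettl24 and Mettl7a3, which had 0 to 3 counts in each library. The count of members called lower was 32 with replicates 1 to 3 alone and 35 without knockout replicate 1. It was 34 without the 3 libraries high in fibroblast markers, a comparison chosen after seeing the data. Calls over all tested genes in these fits are not given here, and fewer libraries can lower both counts. The median log2 fold change of the members minus that of all tested genes was -0.54, -0.53 and -0.56 in these fits, against -0.58 in the fit reported.

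**Figure D1:**
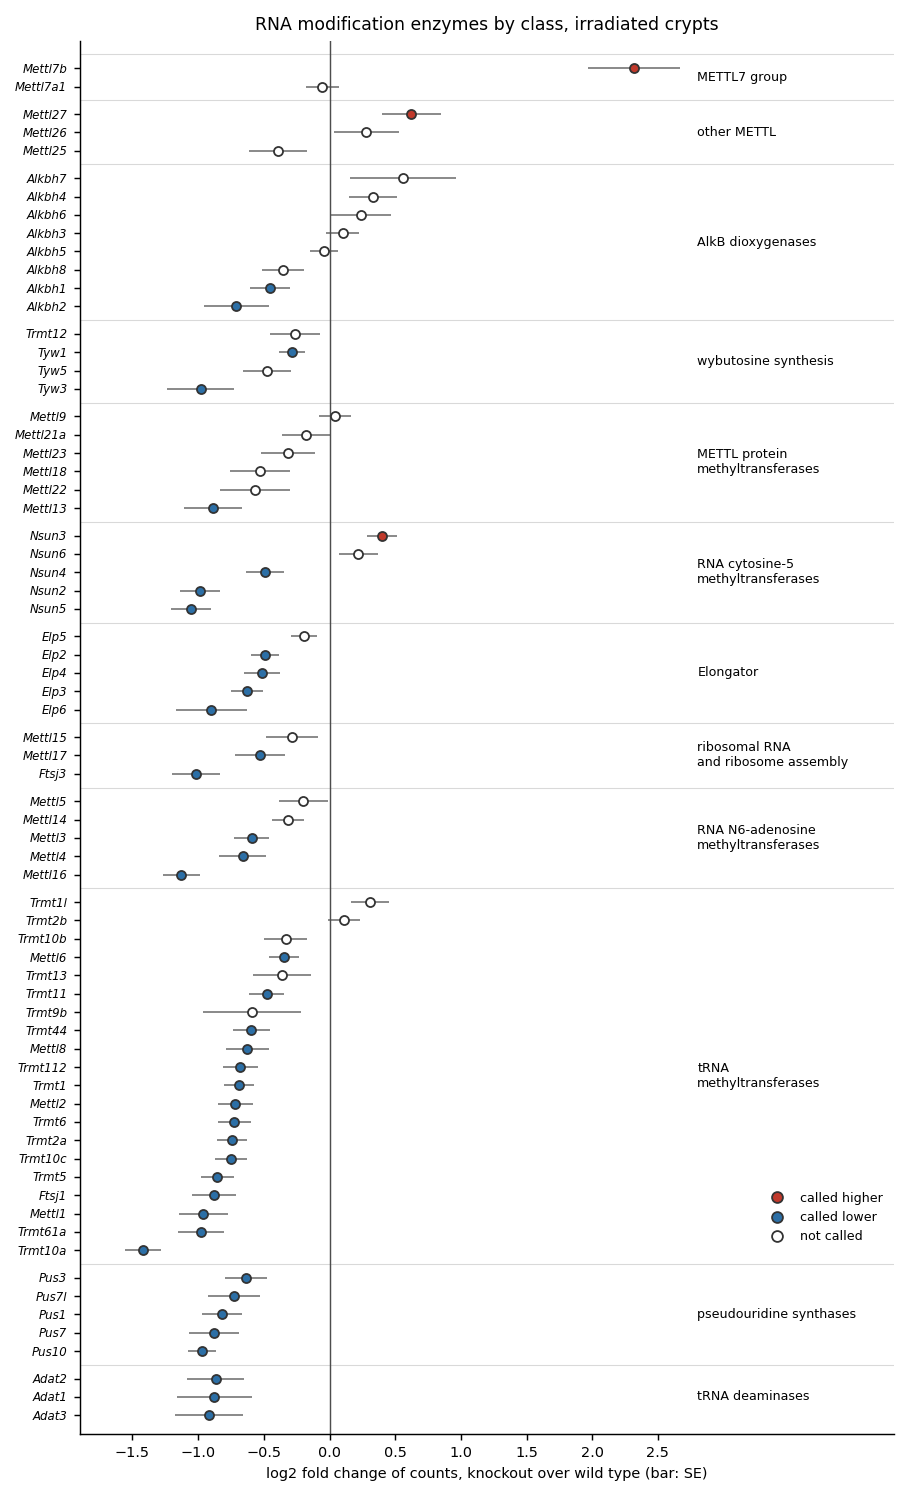
Log2 fold change of counts, knockout over wild type, for the tested RNA modification enzymes named in the text, grouped by class (points, with bars for 1 SE of the edgeR fit and filled points for genes called higher or lower at an adjusted p below 0.05). Filled points on the left are members called lower and those on the right the 3 called higher, with Trmt10a at -1.42 and Mettl7b at 2.32 at the ends.

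The tRNA methyltransferases formed the largest class, and 15 of 20 were lower and 0 higher, with a median log2 fold change of -0.68. Trmt10a methylates a guanosine near the start of the tRNA body, and in humans its loss causes microcephaly with diabetes. It showed the largest drop of all members, with 6.44, 6.72, 8.08 and 8.14 CPM in the knockout libraries, against 19.9, 20.6, 18.8 and 19.3 CPM in the wild-type libraries. The libraries within each group lay close together and the groups were far apart (2.68-fold lower, log2 fold change -1.42 ± 0.14 SE, edgeR adjusted p = 0.00104). The other cytosolic paralog, Trmt10b, had 6.78, 6.19, 5.98 and 7.95 CPM in the knockout libraries, against 7.96, 8.79, 9.14 and 8.04 CPM in the wild-type libraries. Its knockout libraries also lay below its wild-type libraries, by a smaller margin that was not called (log2 fold change -0.33 ± 0.17 SE, edgeR adjusted p = 0.126). Trmt10c, the methyltransferase subunit of mitochondrial ribonuclease P, had 24.2, 30.2, 29.1 and 29.8 CPM in the knockout libraries, against 45.5, 45.8, 43.3 and 56.4 CPM in the wild-type libraries. It fell without overlap between the groups (log2 fold change -0.75 ± 0.12 SE, edgeR adjusted p = 0.00173).

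Both parts of the enzyme that methylates adenosine in the T loop fell. Trmt61a, the catalytic part, had 11.9, 20.3, 20.4 and 18.99 CPM in the knockout libraries, against 37.8, 32.8, 31.7 and 38.9 CPM in the wild-type libraries. Knockout replicate 1 was the lowest and the groups did not overlap (log2 fold change -0.98 ± 0.18 SE, edgeR adjusted p = 0.00248). Trmt6, its RNA-binding partner, had 38.9, 46.1, 45.6 and 54.9 CPM in the knockout libraries, against 73.3, 82.7, 67.95 and 82.5 CPM in the wild-type libraries (log2 fold change -0.72 ± 0.13 SE, edgeR adjusted p = 0.00214). The enzyme that places 7-methylguanosine in the variable loop is also a pair, of the catalytic Mettl1 and the scaffold Wdr4, which lies outside the symbol rule. Mettl1 had 16.1, 28.4, 22.2 and 24.04 CPM in the knockout libraries, against 48.2, 52.5, 35.98 and 39.97 CPM in the wild-type libraries (log2 fold change -0.96 ± 0.19 SE, edgeR adjusted p = 0.00349). For Wdr4 the levels were 19.1, 29.3, 27.9 and 28.1 CPM in knockout crypts and 58.3, 54.8, 46.4 and 53.9 CPM in wild-type crypts (log2 fold change -1.03 ± 0.15 SE, edgeR adjusted p = 0.00124). Every knockout library lay below every wild-type library in both genes of this pair.

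Other methyltransferases of this class fell by similar amounts. Trmt5, which methylates the guanosine beside the anticodon, had 9.95, 12.9, 12.2 and 11.2 CPM in the knockout libraries, against 20.4, 21.6, 19.7 and 21.97 CPM in the wild-type libraries. Its groups were 1.81-fold apart with no overlap (log2 fold change -0.86 ± 0.13 SE, edgeR adjusted p = 0.00131). Trmt2a, which makes 5-methyluridine in the T loop, had 32.3, 43.1, 40.5 and 41.3 CPM in the knockout libraries, against 63.7, 66.01, 62.7 and 70.3 CPM in the wild-type libraries (log2 fold change -0.74 ± 0.11 SE, edgeR adjusted p = 0.0014). Ftsj1, which methylates ribose in the anticodon loop and is mutated in human X-linked intellectual disability, had 15.2, 23.5, 17.6 and 17.03 CPM in the knockout libraries, against 37.0, 38.6, 27.8 and 31.6 CPM in the wild-type libraries. All knockout libraries were again below all wild-type ones (log2 fold change -0.88 ± 0.17 SE, edgeR adjusted p = 0.00293). Trmt112 is a small activator that several methyltransferases need, Trmt11, Mettl5 and Alkbh8 among them. It had 44.5, 60.6, 52.9 and 52.2 CPM in the knockout libraries, against 92.9, 91.9, 70.9 and 80.6 CPM in the wild-type libraries, with no overlap (log2 fold change -0.68 ± 0.13 SE, edgeR adjusted p = 0.00313). Its value is uncertain, because 33.2% of its exonic bases overlap Prdx5 on the other strand, a gene that rose (log2 fold change 1.59), and because it has pseudogene copies.

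The remaining members called lower in this class were Trmt1, Trmt44, Trmt11, Mettl2, Mettl6 and Mettl8, with drops between 1.27-fold for Mettl6 and 1.65-fold for Mettl2. Mettl2, Mettl6 and Mettl8 make 3-methylcytidine in the anticodon loop of different tRNAs. The other members not called were Trmt13 (log2 fold change -0.36), Trmt9b (log2 fold change -0.59), Trmt2b (log2 fold change 0.11, negative with total-count scaling and with FPKM) and Trmt1l (log2 fold change 0.31). Trmt1l had 29.6, 35.5, 39.99 and 33.3 CPM in the knockout libraries, against 26.0, 27.8, 34.4 and 23.7 CPM in the wild-type libraries, so its groups overlapped (edgeR adjusted p = 0.111), but it was called higher with the replicate number as a block (log2 fold change 0.31, edgeR adjusted p = 0.0281) and without wild-type replicate 3 (0.42, edgeR adjusted p = 0.0394). The call of Trmt11 was lost without wild-type replicate 2 (edgeR adjusted p = 0.0519). That of Mettl6 was lost without knockout replicate 1 or 3 or wild-type replicate 1, 2 or 4 (edgeR adjusted p between 0.0621 and 0.0759).

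**Figure D2:**
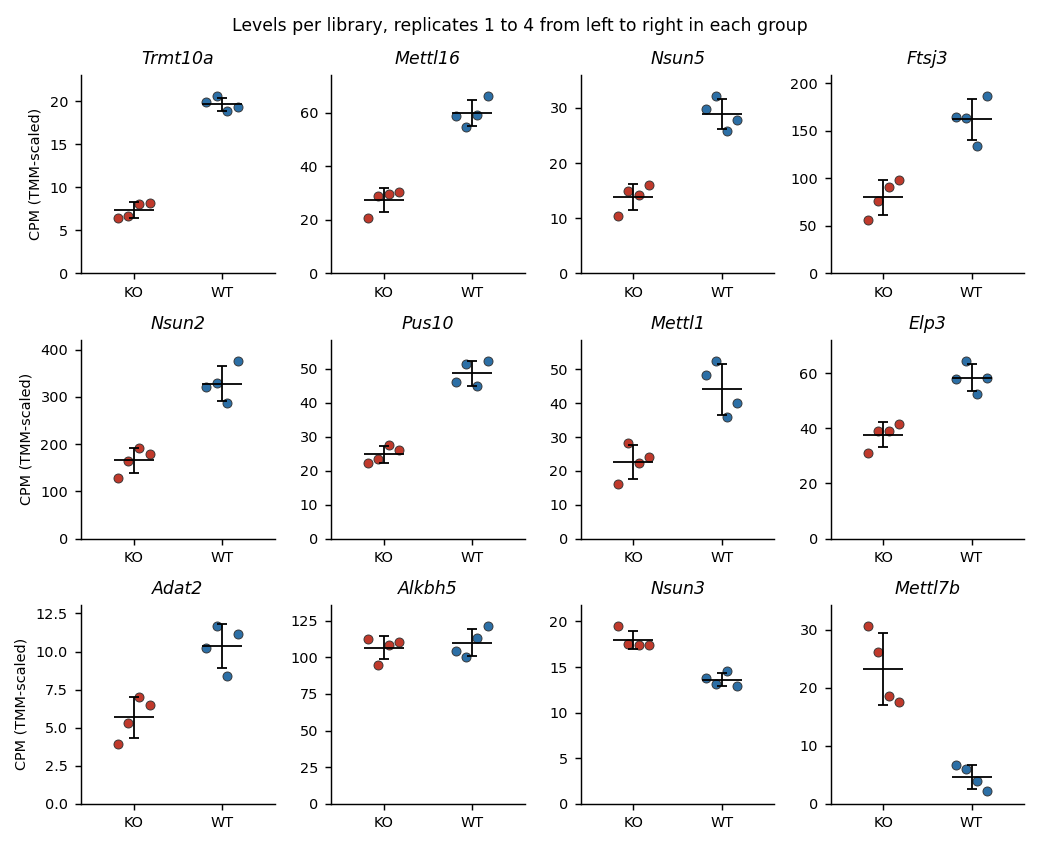
CPM of 12 members in each library (points, replicates 1 to 4 from left to right), with the mean and SD of each group (n = 4), knockout left of wild type. The knockout points lie below all wild-type points in the 9 panels from Trmt10a to Adat2, are mixed with them for Alkbh5, and lie above them for Nsun3 and Mettl7b.

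Enzymes that act at the wobble base gave the same picture in most members. Elongator adds carboxymethyl side chains to wobble uridine, and its subunits had a median log2 fold change of -0.57. Elp3, the catalytic subunit, had 30.98, 38.98, 39.1 and 41.7 CPM in the knockout libraries, against 57.9, 64.4, 52.5 and 58.4 CPM in the wild-type libraries. Its knockout libraries all lay below the wild-type range (log2 fold change -0.63 ± 0.12 SE, edgeR adjusted p = 0.00293). Elp2, which completes the catalytic core, had 42.2, 45.4, 47.2 and 54.2 CPM in the knockout libraries, against 64.6, 65.6, 61.9 and 73.2 CPM in the wild-type libraries (log2 fold change -0.49 ± 0.11 SE, edgeR adjusted p = 0.00558). Elp4, Elp5 and Elp6 form the accessory ring of the complex. Elp4 had 10.6, 11.1, 14.2 and 12.4 CPM in the knockout libraries, against 15.9, 18.03, 16.3 and 18.7 CPM in the wild-type libraries (log2 fold change -0.52 ± 0.14 SE, edgeR adjusted p = 0.0142). Elp6 had 3.69, 7.25, 5.78 and 3.27 CPM in the knockout libraries, against 10.99, 8.52, 8.79 and 9.03 CPM in the wild-type libraries, at low counts (log2 fold change -0.90 ± 0.27 SE, edgeR adjusted p = 0.0221). Elp5, the third ring subunit, had 27.03, 29.8, 25.03 and 25.8 CPM in the knockout libraries, against 32.5, 31.4, 30.7 and 28.9 CPM in the wild-type libraries, and its groups overlapped (log2 fold change -0.20 ± 0.10 SE, edgeR adjusted p = 0.129). The call of Elp6 was lost without knockout replicate 1 (edgeR adjusted p = 0.0547) or wild-type replicate 1 (0.0633), and Elp5 was called lower without knockout replicate 2 (log2 fold change -0.31, edgeR adjusted p = 0.0398).

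Adat2 and Adat3 together convert wobble adenosine to inosine, and Adat1 makes inosine beside the anticodon of tRNA-Ala. All 3 were lower, with a median of -0.88. Adat2, the catalytic partner, had 3.95, 5.304, 6.98 and 6.46 CPM in the knockout libraries, against 10.2, 11.7, 8.37 and 11.1 CPM in the wild-type libraries (log2 fold change -0.87 ± 0.22 SE, edgeR adjusted p = 0.0105). Adat3 had 3.35, 6.895, 6.58 and 8.05 CPM in the knockout libraries, against 11.8, 10.7, 10.8 and 13.7 CPM in the wild-type libraries (log2 fold change -0.92 ± 0.26 SE, edgeR adjusted p = 0.0171). In both partners knockout replicate 1 was the lowest library and the groups did not overlap. Adat1 had 2.06, 4.24, 4.99 and 5.24 CPM in the knockout libraries, against 7.54, 6.64, 7.83 and 8.31 CPM in the wild-type libraries (log2 fold change -0.88 ± 0.28 SE, edgeR adjusted p = 0.0306). Its call was lost without wild-type replicate 1, 3 or 4 (edgeR adjusted p between 0.0631 and 0.0722).

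Wybutosine is a tricyclic base beside the anticodon of tRNA-Phe, made in steps by Tyw1, Trmt12, Tyw3 and others, and hydroxylated by Tyw5. In this class 2 of 4 were lower and 0 higher, with a median of -0.38. Tyw3 had 1.46, 2.83, 2.59 and 2.62 CPM in the knockout libraries, against 4.93, 4.31, 4.66 and 4.85 CPM in the wild-type libraries, a 1.97-fold drop at low level (log2 fold change -0.98 ± 0.26 SE, edgeR adjusted p = 0.0121). Tyw1 had 24.6, 26.4, 25.3 and 27.3 CPM in the knockout libraries, against 33.6, 29.2, 29.9 and 34.03 CPM in the wild-type libraries. Its difference was small, though no libraries overlapped (log2 fold change -0.29 ± 0.10 SE, edgeR adjusted p = 0.039), and the call was lost without knockout replicate 1 or 3 or wild-type replicate 1, 3 or 4 (edgeR adjusted p between 0.0522 and 0.109). Tyw5 had 5.41, 6.01, 5.29 and 4.96 CPM in the knockout libraries, against 6.48, 8.88, 6.93 and 7.87 CPM in the wild-type libraries. It had no overlap either and missed the threshold (log2 fold change -0.48 ± 0.18 SE, edgeR adjusted p = 0.054), and it was called lower without knockout replicate 2 (edgeR adjusted p = 0.0352). Trmt12 was not called (log2 fold change -0.26, edgeR adjusted p = 0.278).

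All 5 pseudouridine synthases were lower, with a median of -0.82. These enzymes turn uridine into its isomer pseudouridine. Pus10, which acts on the T loop and in human cells also aids microRNA processing, had 22.1, 23.3, 27.5 and 26.1 CPM in the knockout libraries, against 46.02, 51.2, 44.8 and 52.2 CPM in the wild-type libraries (log2 fold change -0.97 ± 0.11 SE, edgeR adjusted p = 0.00108). Pus7, which acts on tRNA and messenger RNA, had 23.9, 33.4, 34.1 and 45.7 CPM in the knockout libraries, against 58.99, 59.5, 57.3 and 76.8 CPM in the wild-type libraries (log2 fold change -0.88 ± 0.19 SE, edgeR adjusted p = 0.00523). Pus1, which acts on cytosolic and mitochondrial tRNAs and is mutated in a human mitochondrial myopathy with anaemia, had 27.6, 44.5, 36.9 and 42.4 CPM in the knockout libraries, against 68.7, 63.9, 61.4 and 72.6 CPM in the wild-type libraries (log2 fold change -0.82 ± 0.15 SE, edgeR adjusted p = 0.00269). Every knockout library was below every wild-type library in these genes, and wild-type replicate 4 was the highest in each. Pus7l (log2 fold change -0.73) and Pus3 (log2 fold change -0.64) were also lower, but 88.1% of the exonic bases of Pus3 overlap Hyls1 on the other strand (log2 fold change -0.82), so reads of these neighbours cannot be told apart where the strand is not used.

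The cytosine-5 methyltransferases of the Nsun family split, with 3 of 5 lower and 1 higher, and a median of -0.49. Nsun2, the main tRNA cytosine methyltransferase, had 128, 165, 191 and 178 CPM in the knockout libraries, against 320.3, 329, 286 and 376 CPM in the wild-type libraries. No libraries overlapped and the groups were 1.98-fold apart (log2 fold change -0.99 ± 0.15 SE, edgeR adjusted p = 0.0015). Nsun5, which methylates the large ribosomal RNA, had 10.5, 14.9, 14.2 and 16.0 CPM in the knockout libraries, against 29.7, 32.2, 25.9 and 27.8 CPM in the wild-type libraries. It fell 2.08-fold with no overlap (log2 fold change -1.06 ± 0.15 SE, edgeR adjusted p = 0.00122). Nsun4, a mitochondrial ribosomal RNA methyltransferase, was 1.41-fold lower (edgeR adjusted p = 0.021), and this call was lost without wild-type replicate 2 or 4 (edgeR adjusted p = 0.0642 and 0.0523). Nsun3 acts on mitochondrial tRNA-Met and ran the other way, with 19.5, 17.5, 17.5 and 17.4 CPM in the knockout libraries, against 13.8, 13.2, 14.6 and 12.9 CPM in the wild-type libraries. All knockout libraries lay above the wild-type ones, by 1.32-fold (log2 fold change 0.40 ± 0.11 SE, edgeR adjusted p = 0.0179). This call was lost with upper-quartile and total-count scaling (edgeR adjusted p = 0.058 and 0.523) and without knockout replicate 1, 2 or 4 or wild-type replicate 4 (between 0.0547 and 0.0878). Nsun6 was not called (log2 fold change 0.22, negative with total-count scaling and with FPKM).

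Among the enzymes that methylate adenosine at its N6 position, 3 of 5 were lower and 0 higher, with a median of -0.59. Mettl16, which modifies U6 small nuclear RNA and the transcript of the S-adenosylmethionine synthetase Mat2a, had 20.5, 28.7, 29.6 and 30.5 CPM in the knockout libraries, against 58.8, 54.6, 59.1 and 66.2 CPM in the wild-type libraries. It was 2.19-fold lower, the second largest drop among the members (log2 fold change -1.13 ± 0.14 SE, edgeR adjusted p = 0.00108). Mettl3, the catalytic subunit of the messenger RNA enzyme, had 12.3, 14.2, 14.8 and 12.4 CPM in the knockout libraries, against 19.4, 17.6, 23.2 and 20.7 CPM in the wild-type libraries. Its groups did not overlap (log2 fold change -0.59 ± 0.13 SE, edgeR adjusted p = 0.00649). Mettl14, its partner, had 19.4, 26.2, 25.2 and 22.9 CPM in the knockout libraries, against 29.1, 29.3, 26.7 and 31.7 CPM in the wild-type libraries. These groups did not overlap either, yet the difference missed the threshold (log2 fold change -0.32 ± 0.12 SE, edgeR adjusted p = 0.0574), and it was called lower without knockout replicate 2 (log2 fold change -0.44, edgeR adjusted p = 0.0181). Mettl4, known in human cells for methylating U2 small nuclear RNA, had 10.5, 14.7, 16.5 and 13.3 CPM in the knockout libraries, against 18.7, 18.7, 22.5 and 26.8 CPM in the wild-type libraries (log2 fold change -0.66 ± 0.18 SE, edgeR adjusted p = 0.0148). Mettl5, which with Trmt112 methylates the small ribosomal RNA, had 9.096, 12.7, 8.68 and 8.14 CPM in the knockout libraries, against 11.8, 12.7, 9.98 and 9.97 CPM in the wild-type libraries, and these overlapped (log2 fold change -0.20 ± 0.19 SE, edgeR adjusted p = 0.404).

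Of the members with ribosomal roles, 2 of 3 were lower and 0 higher. Ftsj3, needed for processing of ribosomal RNA precursors, had 55.95, 76.02, 91.1 and 97.95 CPM in the knockout libraries, against 165, 163, 135 and 187 CPM in the wild-type libraries. It fell 2.02-fold with no overlap, and knockout replicate 1 was the lowest (log2 fold change -1.02 ± 0.18 SE, edgeR adjusted p = 0.00247). Mettl17, an assembly factor of the mitochondrial ribosome, had 7.64, 9.55, 11.4 and 9.26 CPM in the knockout libraries, against 12.4, 10.4, 15.96 and 15.7 CPM in the wild-type libraries. It was the one member called lower whose groups overlapped (log2 fold change -0.53 ± 0.19 SE, edgeR adjusted p = 0.048), and the call was lost without knockout replicate 1, 2 or 4 or wild-type replicate 1, 3 or 4 (edgeR adjusted p between 0.0559 and 0.123). Mettl15, a methyltransferase of mitochondrial ribosomal RNA, had 6.09, 6.28, 5.49 and 4.21 CPM in the knockout libraries, against 5.57, 7.18, 7.05 and 7.103 CPM in the wild-type libraries. Those groups overlapped and it was not called (log2 fold change -0.28 ± 0.20 SE, edgeR adjusted p = 0.263).

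The AlkB dioxygenases, which remove methyl groups or hydroxylate bases, were mixed: 2 of 8 were lower and 0 higher. Their median was 0.03, which turned negative with upper-quartile scaling, total-count scaling and FPKM, when knockout replicate 1 or 2 was left out and when no genes were removed for low counts, and the difference from the other classes was not tested. Alkbh5, the eraser of N6-methyladenosine, had 113, 94.8, 108 and 111 CPM in the knockout libraries, against 104, 101, 113 and 121 CPM in the wild-type libraries. The groups overlapped widely and their means differed 1.03-fold (log2 fold change -0.04 ± 0.11 SE, edgeR adjusted p = 0.758). Alkbh8, which finishes the wobble uridine mark that Elongator starts, had 14.4, 16.1, 16.2 and 19.8 CPM in the knockout libraries, against 18.1, 18.5, 23.5 and 24.8 CPM in the wild-type libraries. It overlapped and was not called (log2 fold change -0.35 ± 0.16 SE, edgeR adjusted p = 0.0905), but it was called lower with the replicate number as a block (log2 fold change -0.35, edgeR adjusted p = 0.035) and without knockout replicate 4 (-0.50, edgeR adjusted p = 0.046). Alkbh1, a demethylase of tRNA, had 8.84, 10.3, 12.2 and 10.2 CPM in the knockout libraries, against 12.5, 15.1, 13.9 and 15.4 CPM in the wild-type libraries (log2 fold change -0.45 ± 0.15 SE, edgeR adjusted p = 0.0325). Alkbh2, a repair enzyme for alkylated DNA, had 2.49, 3.36, 4.89 and 3.74 CPM in the knockout libraries, against 5.85, 5.11, 5.62 and 7.05 CPM in the wild-type libraries (log2 fold change -0.71 ± 0.25 SE, edgeR adjusted p = 0.0405). Leaving out 1 library could end either call: that of Alkbh1 was lost without knockout replicate 1 or wild-type replicate 2, 3 or 4 (edgeR adjusted p between 0.0506 and 0.0879), and that of Alkbh2 without knockout replicate 1 or 2 or any 1 wild-type library (between 0.0513 and 0.111). The others were Alkbh7 (log2 fold change 0.56), Alkbh4 (log2 fold change 0.33), Alkbh6 (log2 fold change 0.24) and Alkbh3 (log2 fold change 0.10), the last pair negative with total-count scaling and with FPKM.

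Members that share the Mettl name but are known for other substrates were mixed. Of the 11 tested, 9.09% were called lower and 18.2% higher, against 23.1% and 24.2% of all tested genes. Of the 6 that methylate proteins, Mettl13, the methyltransferase of translation elongation factor eEF1A, was lower, with 8.15, 16.0, 15.1 and 17.8 CPM in the knockout libraries, against 24.9, 27.3, 24.7 and 28.5 CPM in the wild-type libraries (log2 fold change -0.89 ± 0.22 SE, edgeR adjusted p = 0.00924). Its groups did not overlap. Mettl9, a histidine methyltransferase, had 96.02, 91.9, 68.3 and 86.1 CPM in the knockout libraries, against 80.9, 91.8, 81.8 and 78.1 CPM in the wild-type libraries, and was not called (log2 fold change 0.04 ± 0.12 SE, edgeR adjusted p = 0.799, negative with upper-quartile scaling, total-count scaling and FPKM). Mettl18, which methylates a histidine of a ribosomal protein, had 4.63, 4.15, 5.19 and 3.09 CPM in the knockout libraries, against 6.91, 6.91, 4.901 and 5.95 CPM in the wild-type libraries (log2 fold change -0.53 ± 0.23 SE, edgeR adjusted p = 0.0839). Mettl22 had 3.52, 5.13, 2.59 and 5.71 CPM in the knockout libraries, against 6.77, 6.82, 5.86 and 5.67 CPM in the wild-type libraries (log2 fold change -0.56 ± 0.27 SE, edgeR adjusted p = 0.11). Neither was called, and neither were Mettl23 (log2 fold change -0.32) and Mettl21a (log2 fold change -0.18). With total-count scaling Mettl18, Mettl22 and Mettl23 were called lower (edgeR adjusted p = 0.0276, 0.0325 and 0.036), as they were with FPKM, and Mettl18 also with upper-quartile factors (0.0444). Mettl7b, known in humans as an alkyl thiol methyltransferase, was the member with the largest rise, with 30.6, 26.2, 18.6 and 17.6 CPM in the knockout libraries, against 6.77, 5.92, 3.95 and 2.15 CPM in the wild-type libraries. The groups were far apart, 4.99-fold (log2 fold change 2.32 ± 0.35 SE, edgeR adjusted p = 0.00141), and knockout replicates 1 and 2 were higher than replicates 3 and 4. Its paralog Mettl7a1 had 19.9, 22.6, 19.3 and 17.8 CPM in the knockout libraries, against 17.8, 21.3, 23.2 and 20.4 CPM in the wild-type libraries. It was not called (log2 fold change -0.05 ± 0.13 SE, edgeR adjusted p = 0.748, positive without wild-type replicate 3). It shares sequence with Mettl7a3, to which 0 to 2 counts were assigned in each library. Mettl27 had 7.64, 10.2, 6.98 and 6.74 CPM in the knockout libraries, against 5.22, 6.37, 5.02 and 3.91 CPM in the wild-type libraries. It was 1.54-fold higher with no overlap (log2 fold change 0.62 ± 0.22 SE, edgeR adjusted p = 0.0439), a call lost with upper-quartile and total-count scaling (edgeR adjusted p = 0.0725 and 0.223) and without knockout replicate 1, 2 or 4 or wild-type replicate 1, 3 or 4 (between 0.0598 and 0.141). Mettl26 had 26.9, 35.0, 18.2 and 15.9 CPM in the knockout libraries, against 20.01, 24.04, 17.6 and 17.5 CPM in the wild-type libraries. Mettl25 had 4.81, 5.66, 3.59 and 4.68 CPM in the knockout libraries, against 6.62, 7.35, 4.72 and 5.95 CPM in the wild-type libraries. Both overlapped and were not called (log2 fold changes 0.28 for Mettl26, negative with total-count scaling, with FPKM and without knockout replicate 2, and -0.39 for Mettl25).

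Per transcript length, in the deposited FPKM, the levels of the members ranged widely. In the wild type, Trmt112 had the highest mean, with 52.7 ± 9.39 FPKM in knockout and 101 ± 7.11 FPKM in wild-type crypts (SD, n = 4 each), and Nsun2 the next highest, with 36.99 ± 10.5 FPKM in knockout and 86.6 ± 9.62 FPKM in wild-type crypts (SD, n = 4 each). Ftsj3 averaged 27.3 ± 9.28 FPKM in knockout and 64.9 ± 7.72 FPKM in wild-type crypts and Mettl9 52.2 ± 3.57 FPKM in knockout and 61.3 ± 5.29 FPKM in wild-type crypts (SD, n = 4 each), so the order of Ftsj3 and Mettl9 in the wild type lay within their spread. The order differed in the knockout, where Mettl9 averaged more than Nsun2 and lay within the spread of Trmt112. The largest faller, Trmt10a, was a gene of low level, with 2.397 ± 0.493 FPKM in knockout and 7.63 ± 0.373 FPKM in wild-type crypts (SD, n = 4 each). FPKM carry total-count scaling, so a knockout value is set against a wild-type value here without the TMM factors.

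Genes of the same pathways outside the symbol rule were mostly lower in 2 of 3 lists. Of 41 other tRNA modification genes, 23 were lower and 2 higher, with a median log2 fold change of -0.51. Thg1l, which adds the extra guanosine of tRNA-His, had 15.02, 18.4, 18.7 and 19.9 CPM in the knockout libraries, against 38.6, 46.4, 33.5 and 39.9 CPM in the wild-type libraries (log2 fold change -1.14 ± 0.14 SE, edgeR adjusted p = 0.00108). Kti12, a cofactor of Elongator, had 27.1, 39.95, 41.3 and 41.4 CPM in the knockout libraries, against 76.96, 85.5, 68.6 and 82.5 CPM in the wild-type libraries (log2 fold change -1.07 ± 0.15 SE, edgeR adjusted p = 0.00121). Both lay wholly below the wild type. Trdmt1, which methylates cytosine in tRNA-Asp, had 19.1, 19.5, 6.08 and 15.2 CPM in the knockout libraries, against 7.54, 9.96, 4.303 and 6.17 CPM in the wild-type libraries (log2 fold change 1.11 ± 0.38 SE, edgeR adjusted p = 0.038), and Tprkb, a subunit of the complex that makes threonylcarbamoyl adenosine, had 58.1, 59.8, 32.01 and 40.8 CPM in the knockout libraries, against 30.4, 34.4, 26.2 and 26.6 CPM in the wild-type libraries (log2 fold change 0.70 ± 0.20 SE, edgeR adjusted p = 0.02). These were the 2 called higher, their groups overlapped, and single libraries decided them: Tprkb was lost without knockout replicate 1 or 2 or wild-type replicate 3 or 4 (edgeR adjusted p between 0.055 and 0.0871) and Trdmt1 without knockout replicate 1, 2 or 4 or wild-type replicate 1, 3 or 4 (between 0.0706 and 0.115).

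Of 19 tested other genes that modify ribosomal and small nuclear RNA, 14 were lower and 0 higher, with a median of -0.85. Dimt1, which dimethylates adenosines of the small ribosomal RNA, had 8.67, 11.7, 13.4 and 10.2 CPM in the knockout libraries, against 23.8, 28.3, 20.7 and 25.3 CPM in the wild-type libraries (log2 fold change -1.16 ± 0.17 SE, edgeR adjusted p = 0.00122). Emg1, which methylates a pseudouridine there, had 54.5, 78.6, 73.5 and 77.1 CPM in the knockout libraries, against 147, 156, 121 and 136 CPM in the wild-type libraries (log2 fold change -0.98 ± 0.14 SE, edgeR adjusted p = 0.00127). The groups did not overlap in either. The genes of this list with positive fold changes and the smallest p were Mepce, which caps a small nuclear RNA and had 50.7, 51.9, 47.9 and 52.6 CPM in the knockout libraries, against 44.9, 44.9, 42.7 and 47.4 CPM in the wild-type libraries (log2 fold change 0.17 ± 0.09 SE, edgeR adjusted p = 0.12), and Mrm1, a mitochondrial ribosomal RNA methyltransferase with 8.495, 10.2, 10.3 and 11.98 CPM in the knockout libraries, against 9.44, 9.15, 11.2 and 10.1 CPM in the wild-type libraries (log2 fold change 0.03 ± 0.16 SE, edgeR adjusted p = 0.873). Neither was called, and both were negative with total-count scaling and with FPKM. Of 19 tested genes of messenger RNA modification, 5 were lower and 1 higher, with a median of -0.18. The share called lower was 26.3%, close to the 23.1% of all tested genes. Rbm15b, a subunit that guides the Mettl3 complex, had 17.9, 19.5, 25.3 and 23.5 CPM in the knockout libraries, against 36.1, 37.9, 38.3 and 45.4 CPM in the wild-type libraries (log2 fold change -0.87 ± 0.14 SE, edgeR adjusted p = 0.00161). Wtap, another subunit, had 97.7, 94.7, 87.5 and 76.9 CPM in the knockout libraries, against 80.3, 87.7, 80.9 and 82.7 CPM in the wild-type libraries. The first lay wholly below the wild type, and Wtap overlapped and was not called (log2 fold change 0.11 ± 0.10 SE, edgeR adjusted p = 0.424; negative with total-count scaling and with FPKM). Cmtr2, a cap methyltransferase, had 9.87, 12.1, 9.57 and 11.04 CPM in the knockout libraries, against 18.3, 21.6, 17.03 and 23.4 CPM in the wild-type libraries, with no overlap (log2 fold change -0.91 ± 0.15 SE, edgeR adjusted p = 0.00183). Pcif1, which methylates adenosine at the cap, had 48.6, 41.7, 36.3 and 39.3 CPM in the knockout libraries, against 36.4, 30.9, 29.5 and 32.7 CPM in the wild-type libraries. It was called higher although its groups overlapped (log2 fold change 0.36 ± 0.12 SE, edgeR adjusted p = 0.0359), a call lost without knockout replicate 1, 2 or 4 or wild-type replicate 2, 3 or 4 (edgeR adjusted p between 0.0765 and 0.155). The adenosine deaminase Adar was not called, with 94.6, 84.3, 99.9 and 107 CPM in the knockout libraries, against 85.1, 88.2, 77.7 and 90.2 CPM in the wild-type libraries (log2 fold change 0.18 ± 0.11 SE, edgeR adjusted p = 0.196).

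**Figure D3:**
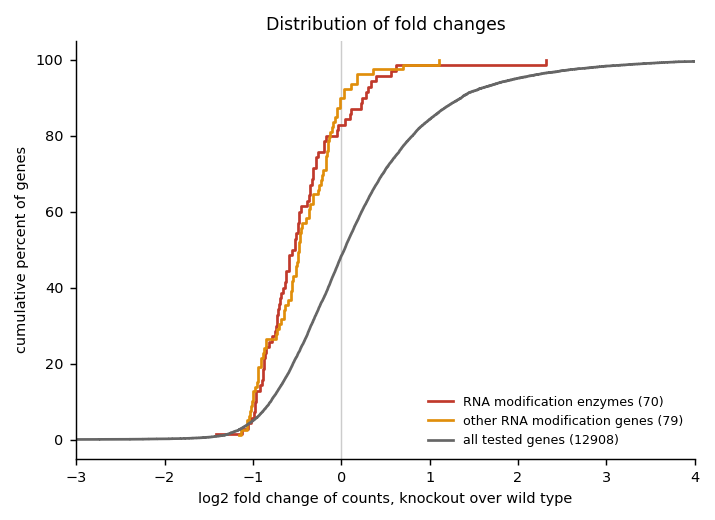
Cumulative percent of genes by log2 fold change, knockout over wild type, for the 70 RNA modification enzymes, 79 other RNA modification genes and all 12908 tested genes. The curves of both lists lie left of that of all genes, with medians of -0.55 and -0.48 against 0.03.

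The libraries did not contribute equally. Among the 41 members called lower, knockout replicate 1 was the lowest knockout library in 36, wild-type replicate 4 the highest wild-type library in 24, and wild-type replicate 3 the lowest of its group in 25. The mean log2 CPM of the 70 members, relative to the mean of all 8 libraries, was -0.42, -0.09, -0.18 and -0.21 in the knockout and 0.24, 0.27, 0.15 and 0.25 in the wild type. Knockout replicate 1 thus stood lowest, and no knockout library reached a wild-type one.

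Crypt cell markers moved with the genotype beside the enzymes. All 17 markers of dividing cells were lower in the knockout, with a median log2 fold change of -1.22 and a summed level of 1054, 1532, 1435 and 1710 CPM in the knockout against 3158, 3046, 3026 and 3587 CPM in the wild type. Knockout replicate 1 and wild-type replicate 4 were the extremes of this list, and Mki67 averaged 177 ± 67.8 CPM in knockout and 422 ± 122 CPM in wild-type crypts (SD, n = 4 each). Of 8 Lgr5 stem cell markers, 5 were lower (62.5%, against 23.1% of all tested genes) and 0 higher. Lgr5 itself averaged 14.6 ± 6.18 CPM in knockout and 28.6 ± 4.63 CPM in wild-type crypts. Rgmb, Axin2 and Olfm4 were not called, and Olfm4 ran the other way (log2 fold change 0.47, edgeR adjusted p = 0.413). The summed level of this list overlapped, at 553.3, 1008, 574.5 and 897 CPM in the knockout against 919.9, 893.4, 1208 and 935.3 CPM in the wild type. All 22 enterocyte markers, genes of mature absorptive cells, were higher, with a median of 3.13 and summed levels of 36800 to 120000 CPM in the knockout against 3214 to 15560 CPM in the wild type. Of the tested goblet (6 of 7), tuft (5 of 6) and enteroendocrine (6 of 8) markers, most were also higher, and 0 of 6 tested Paneth cell markers were called. None of these markers in the table was at 0 in all 8 libraries. In such bulk samples fewer cells of a type and less RNA per cell cannot be told apart, and the part of the cell makeup in the lower enzyme levels was not tested.

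**Figure D4:**
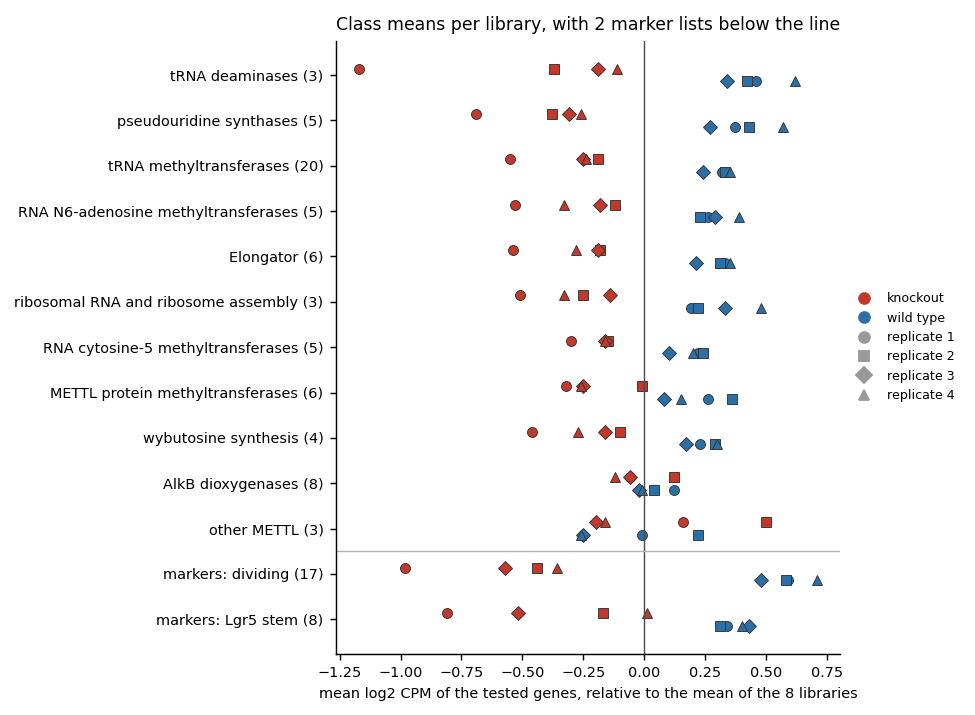
Mean log2 CPM of the tested genes of the enzyme classes in each library, relative to the mean over the 8 libraries, with dividing and Lgr5 stem cell markers below the line (number of genes in parentheses, knockout points above wild-type points in each row). The METTL7 group, with 2 tested genes, is not drawn. Knockout replicate 1 is leftmost in most rows, AlkB dioxygenases and other METTL have mixed groups, and the dividing cell markers run from -0.98 to -0.36 in the knockout and from 0.48 to 0.71 in the wild type.

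The 5 tested genes whose deviations from their group means followed those of Trmt10a most closely over the 8 libraries were Tpcn2 (Pearson r = 0.98), Zfp185 (0.98), Rccd1 (0.98), Recql (0.97) and Cstf3 (0.97). They are given as a description. As the highest among 12908 tested genes over 8 libraries that differ in depth, such values can arise by chance. Trmt10a shares 5.73% of its exonic bases with Mttp on the other strand, a lipid transfer gene of enterocytes that rose, with 2996, 2134, 896 and 1341 CPM in the knockout libraries, against 337, 344, 179 and 68.99 CPM in the wild-type libraries. In all, 26 members overlap another gene of the table in the GENCODE M21 annotation. Besides Pus3 and Trmt112, the overlap passed 20% of exonic bases for Alkbh2 with Usp30 (29.5%) and for Tyw5 with Maip1 (25.6%), and no source says whether the counting used strand.

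By its genotype the knockout lacks the locus of miR-29a and miR-29b-1. MicroRNAs repress transcripts that pair with their seed, bases 2 to 8 of the mature strand. Other microRNA genes with the same seed were not examined, so some of this pairing may remain in the knockout. The mature strands of the deleted locus are shown because both carry one seed, in capitals (RefSeq, GRCm38.p6, minus strand, chr6:31062673-31062694 and chr6:31063025-31063047).
miR-29a-3p: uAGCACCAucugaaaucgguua
miR-29b-3p: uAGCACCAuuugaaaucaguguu

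The match to this seed, TGGTGCT, was searched on the transcript strand in each gene's longest annotated 3′ UTR. It was present in 14 of 70 tested members, against 2136 of 12677 tested genes with such a UTR (16.9%). The 14 had a median log2 fold change of -0.37, with 7 called lower and 0 higher. The 56 without it had a median of -0.59, with 34 lower and 3 higher. Over all tested genes the median was 0.03 with and 0.03 without a match, with 469 lower and 504 higher of 2136 with it, and 2482 lower and 2586 higher of 10541 without it. None of the 3 members called higher held a match. Their UTRs differ in length, with a median of 2482 bases for members with a match and 1121 bases for those without.

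Sites of a selection of the members described above are shown with the seed match in capitals, in windows of the GENCODE M21 transcripts. Mettl16 held 2 matches, at bases 3107 and 4428 of its 3′ UTR. Those of Mettl14, Alkbh8 and Mettl23 (not shown) are followed by an A, the longest class of pairing, and none of these genes was called.
Mettl16, first site: agtcaagtttgtgtTGGTGCTggtggattg
Mettl16, second site: ttcggaagagtagtTGGTGCTcttaactgc
Elp3: gtagatagtgttgaTGGTGCTgcatgaaga
Trmt61a: aagtctccaggcccTGGTGCTccagagctt
Mettl14: aagtgggacacattTGGTGCTatattattt
Alkbh8: tggtcccaggttggTGGTGCTatttgggga

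Because many members moved together, their promoters were searched on both strands, from 250 bases before to 50 bases after the annotated start (RefSeq, GRCm38.p6). Of the tested members, 58 matched a promoter. CACGTG, the E-box core bound by Myc and related factors, was found in 7 of 58 (12.1%) and in 10.1% of 10299 tested genes with a promoter. The ETS-type motif CCGGAAG was found in 32.8% of the members and 18.1% of all, and TGCGCA in 17.2% and 14.1%. CCAAT (39.7% and 39.0%) and GGCGGGA (19.0% and 20.9%) were near the share of all promoters, and TTTCGCG was found in 0 of 58 and 1.69% of all. Among the 33 matched members called lower, the shares were 18.2% for CACGTG, 24.2% for TGCGCA, 36.4% for CCGGAAG, 42.4% for CCAAT and 21.2% for GGCGGGA. Matches of different motifs can share bases at their ends, and a match is a stretch of letters and not a bound site. Shares over all genes called lower were not computed, and a link of any motif to the lower levels was not tested.

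The E-box windows of the 7 members follow, with CACGTG in capitals and the strand of the gene. They include 3 pseudouridine synthases and both Mettl1 and Trmt61a. The share of members with this motif, 12.1%, was near the 10.1% of all tested genes with a promoter.
Pus1, chr5:110780576-110780605, minus strand: tccgccttcgtgCACGTGgtcagcttcggg
Pus3, chr9:35558416-35558445, plus strand: tctcgcccctggCACGTGctgccacccccg
Pus7, chr5:23783666-23783695, minus strand: ggcgcagcgccgCACGTGtgcgagcccggc
Mettl1, chr10:127041950-127041979, plus strand: agctcggctctcCACGTGgactgcgtggca
Trmt61a, chr12:111678118-111678147, plus strand: ccgccgtggagcCACGTGtggagccgggag
Mettl13, chr1:162548475-162548504, minus strand: gtgtggctgctgCACGTGgggcgcggaccg
Alkbh7, chr17:56997159-56997188, plus strand: tggctttgccccCACGTGacctccagcctc
The first 6 were called lower, with a log2 fold change between -0.64 for Pus3 and -0.98 for Trmt61a, and Alkbh7 was not called (log2 fold change 0.56, edgeR adjusted p = 0.275).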

How the data were processed

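RNA from small intestinal crypts was sequenced as 8 libraries, grouped by the genotype and replicate number in their labels. Per the file headers, the authors deposited read counts by gene. These were taken as estimated counts, because 8.04 to 9.18 percent of the deposited values in a library were not whole (tolerance 1e-06), and were rounded. The authors' second set of columns has no unit in its header and was taken as FPKM, since its ratio to the counts followed the library totals to within 0.663 percent. The submitters' processing notes name HISAT2 and DESeq2; neither the counting program nor the genome build nor the strandedness is stated. The 17634 genes are identified by symbol and NCBI number, 17522 of which were found in the RefSeq table, as were all 73 members. No library repeated another: the closest pair of a group differed by 6.63 times the sampling variance per gene.

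The test was edgeR 4.0.16 under R 4.3.3 (TMM, filterByExpr, glmQLFit, glmQLFTest, genotype as the sole term), with Benjamini-Hochberg adjustment over 12908 genes and a threshold of 0.05. The SE is the size of the log2 fold change divided by the square root of F. The same steps were also run on simulated counts. In these few genes changed, with both directions alike, so they do not test the choice of scaling. Alternatives used DESeq2 1.42.0, limma 3.58.1 (limma-voom, and log2(FPKM + 1) with a pseudocount of 1), other scalings and filters, each library left out, replicates 1 to 3 alone, and the replicate number as a block. Same-numbered libraries of the 2 groups deviated together (correlation 0.311 to 0.524 in every pair, -0.478 to 0.447 across numbers). The number was therefore taken as a possible pairing, from the data, since the labels do not say what it stands for. The fit reported left this pairing out, and it entered only as the replicate block.

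Values per library were given for members by a rule: up to 3 per class with the smallest p, the parts of known enzyme pairs and complexes, selected enzymes such as Nsun2 and Alkbh5, and those called with a log2 fold change of at least 1. The members, classes, lists and rule were chosen with earlier results of these data known. Sequences came from RefSeq (GRCm38.p6) and GENCODE M21 transcripts, and overlaps from GENCODE M21. The authors' group averages were not used. The values of 1 member are not reported here, though it is counted in the totals and class medians.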

Additional observations from a re-analysis of the deposited data

Results flagged for a closer look

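In 4 cases 1 library of a group of 4 lay far from its 3 neighbours, by Dixon's test at 95% on the gap over the group's range. Chance gives about 1 in 20 groups, and 96 groups of the 48 members given per library were tested. Nsun3 was at 19.5 CPM in knockout replicate 1, the highest of its group. Trmt61a was at 11.9 CPM in knockout replicate 1, the lowest. Pus7 was at 76.8 CPM in wild-type replicate 4, the highest, and Mettl15 at 5.57 CPM in wild-type replicate 1, the lowest. Without knockout replicate 1 Trmt61a was still called lower, and Nsun3 was no longer called higher (edgeR adjusted p = 0.0878).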

How the results depend on the processing

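Over the 19 alternatives, 34 to 42 members were called lower when a library was left out, 39 to 45 with DESeq2 size factors or test, limma-voom, upper-quartile factors, other filters or the replicate block, 32 with replicates 1 to 3 alone, 34 without the 3 libraries high in fibroblast markers (chosen after seeing the data), and 50 and 52 with total-count scaling and limma on log2(FPKM + 1). Of the 44 called members, 32 kept the call and direction in every alternative that tested them and 12 lost the call in at least 1. Of the uncalled, 14 were called in some alternative: Elp5, Mettl14, Tyw5 and Mettl18 with upper-quartile factors, total-count scaling and FPKM (the first 3 also without knockout replicate 2), Alkbh8 (also with the block and without knockout replicate 4), Mettl22, Mettl23, Mettl25 and Trmt10b with total-count scaling and FPKM, Mettl5 and Trmt13 with FPKM, Alkbh7 and Mettl26 without the 3 libraries, and Trmt1l with the block and without wild-type replicate 3. The replicate block added Trmt1l and Alkbh8 and changed no other member's call. The members called higher numbered 1 with upper-quartile factors, total-count scaling, no low-count filter, replicates 1 to 3 alone and FPKM, 4 with the replicate block and without the 3 libraries, and 1 to 3 with a library left out; the cause was not tested. Other RNA modification genes called higher numbered 1 with total-count scaling, 0 with replicates 1 to 3 alone, 0 with FPKM, and 0 to 3 with a library left out.

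Total-count scaling and FPKM moved the median log2 fold change of all tested genes from 0.03 to -0.23 and -0.19, with 2089 and 2030 genes called higher and 4011 and 4320 lower; upper-quartile factors gave -0.06 and leaving out the 3 libraries -0.04. Relative to that median, the members' median was -0.58 in the fit reported, -0.59 with total-count scaling and -0.47 with FPKM. It was -0.54 with replicates 1 to 3 alone, -0.56 without the 3 libraries and -0.61 to -0.53 with a library left out. Unshifted, total-count scaling gave medians of -0.81 for the members, -0.94 for tRNA methyltransferases, -0.65 for wybutosine synthesis, -0.76 for cytosine-5 methyltransferases, -1.07 for pseudouridine synthases, -0.82 for Elongator, -0.86 for N6-adenosine methyltransferases, -0.79 for ribosomal members, -0.24 for AlkB, -0.69 for METTL protein methyltransferases, -0.02 for other METTL, and -0.73, -0.75, -0.43 and -1.10 for the other RNA modification genes together and their tRNA, mRNA and rRNA lists. With FPKM they were -0.65 for the members, -0.91 for tRNA methyltransferases, -0.53 for wybutosine synthesis, -0.62 for cytosine-5 methyltransferases, -1.07 for pseudouridine synthases, -0.79 for Elongator, -0.70 for ribosomal members, -0.22 for AlkB, -0.60 for METTL protein methyltransferases, -0.056 for other METTL and 0.78 for the METTL7 group, and -0.68, -0.69, -0.39 and -1.10 for those 4 lists.

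With a library left out the AlkB median ran from -0.037 to 0.039, and it was -0.0075 without the low-count filter. Upper-quartile factors gave -0.064 for AlkB and -0.58 for cytosine-5 methyltransferases. Without the low-count filter the METTL7 group was at 0.71 and the cytosine-5 class at -0.30, and with a mean of at least 50 counts wybutosine synthesis was at -0.26. Without the 3 libraries Elongator was at -0.73, other METTL at 0.61, tRNA deaminases at -1.24, and the other tRNA and mRNA lists at -0.67 and -0.30. With a library left out, the cytosine-5 class ran from -0.59 to -0.42, tRNA methyltransferases from -0.81 to -0.65, and other METTL from -0.014 to 0.41.

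The sign turned for 8 uncalled members. With total-count scaling and FPKM the log2 fold changes were -0.16 and -0.15 for Alkbh3, -0.039 and -0.020 for Alkbh6, -0.051 and -0.016 for Nsun6, -0.16 and -0.16 for Trmt2b, -0.022 and -0.056 for Mettl26, and -0.24 and -0.23 for Mettl9. Mettl9 also gave -0.053 with upper-quartile factors, -0.020 with replicates 1 to 3 alone and -0.054 to 0.14 with a library left out. Mettl7a1 gave 0.11 without the 3 libraries. Leaving out a library gave -0.12 to 0.0042 for Alkbh5, -0.19 to 0.0028 for Mettl7a1 and -0.014 to 0.41 for Mettl26. Outside the symbol rule, Adar (-0.077 and -0.093), Mepce (-0.093 and -0.092) and Wtap (-0.17 and -0.14) turned with total-count scaling and FPKM, and Mrm1 gave -0.23 and -0.19 there, -0.058 with upper-quartile factors, -0.0013 without the filter, -0.085 with replicates 1 to 3 alone, -0.029 without the 3 libraries and -0.095 to 0.091 with a library left out. The totals per library and 4 libraries a group limit what can be called among members at a few CPM.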
